A study of Mus musculus with 60 samples.

Results

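The genes described here are 37 transcripts of the myelinating oligodendrocyte, the glial cell that wraps axons of the central nervous system in myelin. They were chosen by name as a module, from sheath proteins through lipid enzymes to transcription factors, and a gene was kept if its mean over all libraries reached 1 TPM. All 37 of the 47643 gene symbols in the table met that limit and all 37 were among the 15608 genes tested. TPM is a transcript abundance scaled by transcript length and library total.

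The libraries are bulk RNA-seq of hippocampus, a cortical region that serves memory, from female mice of 2 months. Mice carried melanoma cells that cause cachexia, the wasting syndrome of cancer (CAC), carried melanoma cells that do not (NCAC), or were mock injected (Con), and tissue was taken 2, 4, 6 or 8 wk later. CAC was represented by 4, 5, 5 and 7 libraries at these times, NCAC by 5, 5, 4 and 5, and Con by 5 at each, 60 in all. All groups share sex and tissue. The labels give 2 months for every library at every week, so age at injection and age at collection cannot both be shared. The sample labels give the strain as C57BL6/J and the series' design text as NCI Ath/nude, a background that lacks a thymus. That conflict applies to every group. The labels name neither the melanoma lines nor any measure of wasting, and no label says that each library came from a mouse of its own, so p-values here measure the spread between these libraries. In bulk tissue, fewer oligodendrocytes and less RNA per oligodendrocyte cannot be told apart.

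Myelin is a stack of membrane turns held together on the cytoplasmic side by basic proteins and rich in cholesterol and galactolipids. Its genes are switched on together when an oligodendrocyte precursor matures, under Myrf, Sox10, Olig2 and Nkx2-2, and many stay active for life because the sheath is renewed. In the hippocampus myelin is sparse compared with the white matter tracts beside it, the fimbria and the corpus callosum.

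Recovered depth was 32386613 to 42044671 reads per library, and no 2 libraries were identical. Neuronal and hippocampal genes were present throughout, with Slc17a7, a vesicular glutamate transporter, at 811 to 1377 TPM and Prox1, a granule cell factor, at 31.8 to 89.8 TPM. Sox10, the pan-oligodendroglial factor, lay at 17.3 to 51.1 TPM. Of the 60 libraries, 6 stood more than 1.5 log2 above the median library in a list of striatum, thalamus or erythrocyte genes. They are CAC 2 wk replicate 1, CAC 4 wk replicates 1, 2 and 4, CAC 8 wk replicate 3 and Con 4 wk replicate 2, and results that rest on them are given with and without them.

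Within the module, levels spanned from Mbp, myelin basic protein, at a mean of 731 TPM over the 60 libraries, to Klk6, a secreted serine protease, at 1.502 TPM. After Mbp came Mobp at 347 TPM, Mal at 223, Car2 at 219, Cnp at 207, Qdpr at 204, Trf at 198 and Apod at 185 TPM. Apod, apolipoprotein D, ranged from 88.6 to 791 TPM over the libraries. Klk6 was the only member listed at 0 in any library.

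Differences below are on the log2(TPM + 0.5) scale, group against group, with the standard error (SE) of limma's moderated test and p-values adjusted by the Benjamini-Hochberg method over all 15608 tested genes, at a threshold of 0.05. At 8 wk after injection a subset of the module was lower in CAC than in both other groups. The subset was Opalin, Serpinb1a, Ugt8a, Gjb1, Pllp, Tmem125, Car2, Efhd1 and Qdpr, with Opalin at 0.407 of the Con and 0.352 of the NCAC level and Serpinb1a at 0.372 and 0.373. Apod was higher, 2.06-fold and 2.08-fold, and Anln, an actin-binding scaffold of the sheath, was higher than in Con. The most abundant sheath transcripts, Mbp, Mobp, Mal, Cnp and Cldn11, did not pass the test in either comparison.

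Against Con at 8 wk, 13 of the 37 members passed, 2 higher and 11 lower, where 14.5% of all tested genes passed (11.3% higher and 3.2% lower). Against NCAC at 8 wk, 12 passed, 1 higher and 11 lower, beside 1.83% of all tested genes (1.26% higher and 0.564% lower). When only the libraries of the 2 groups compared entered the fit, 12 members passed against Con and 2 against NCAC. Over all tested genes, 2847 then passed against Con (2256 in the main fit) and 83 against NCAC (285 in the main fit). The median difference over the members was -0.30 against Con and -0.41 against NCAC, and over all tested genes it was 0.05 and 0.02. Both comparisons use the same 7 CAC libraries, so that the 10 members called in both are not 2 independent findings. In limma's test of NCAC against Con at 8 wk 0 of 37 members and 0% of all genes passed, with 1 member at an unadjusted p under 0.05, 31 of 37 members above 0, and 0 members by limma voom on recovered reads. In the comparisons of NCAC with Con at the other times, and in every count of 0 members below in limma's test, voom gave 0 as well.

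**Figure D1:**
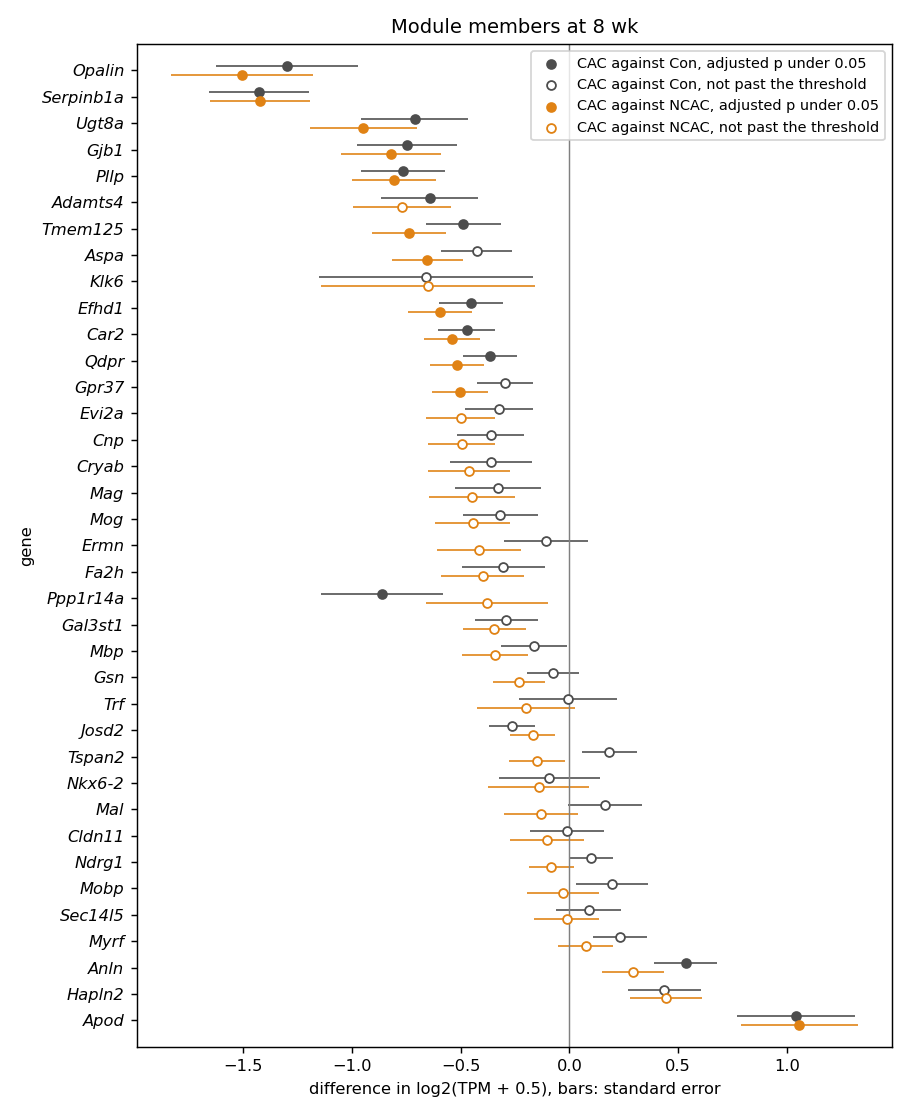
Difference in log2(TPM + 0.5) at 8 wk (x axis) for each of the 37 members (y axis), CAC against Con in grey and CAC against NCAC in orange; points are estimates, bars are 1 SE, and filled points passed an adjusted p of 0.05. Opalin and Serpinb1a lie farthest to the left and Apod farthest to the right in both comparisons, while Mobp, Cldn11 and Mal lie near 0.

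The sequences just before the transcription start are shown for 4 of the members that passed against NCAC, those of largest difference with a single RefSeq start and a window outside the annotated gene, because they include both directions of change. Each is the 250 bases before the start on the gene's own strand, from RefSeq on GRCm38.p6. The bases in capitals are matches to ACAAAG, the core that SOX proteins such as Sox10 bind, searched on both strands together with CTGGCAC, the core bound by Myrf, and AGAACA, a half-site of the glucocorticoid receptor. No stretch of these 4 windows matches CTGGCAC or AGAACA.
Opalin, chr19:41077114-41077363, minus strand: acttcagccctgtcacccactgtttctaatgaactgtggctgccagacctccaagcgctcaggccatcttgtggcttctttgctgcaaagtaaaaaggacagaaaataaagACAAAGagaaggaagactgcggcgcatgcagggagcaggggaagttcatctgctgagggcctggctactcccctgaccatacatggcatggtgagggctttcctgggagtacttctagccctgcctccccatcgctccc
Apod, chr16:31314809-31315058, minus strand: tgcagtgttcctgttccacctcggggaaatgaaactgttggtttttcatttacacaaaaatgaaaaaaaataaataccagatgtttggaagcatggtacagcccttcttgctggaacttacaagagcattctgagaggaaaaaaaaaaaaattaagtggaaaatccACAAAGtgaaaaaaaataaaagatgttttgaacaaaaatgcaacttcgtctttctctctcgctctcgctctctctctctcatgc
Ugt8a, chr3:125938653-125938902, minus strand: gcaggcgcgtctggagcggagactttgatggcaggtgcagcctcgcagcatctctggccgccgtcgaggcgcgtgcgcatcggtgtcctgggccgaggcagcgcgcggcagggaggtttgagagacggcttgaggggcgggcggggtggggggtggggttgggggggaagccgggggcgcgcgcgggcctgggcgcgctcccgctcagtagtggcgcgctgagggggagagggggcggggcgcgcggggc
Efhd1, chr1:87264103-87264352, plus strand: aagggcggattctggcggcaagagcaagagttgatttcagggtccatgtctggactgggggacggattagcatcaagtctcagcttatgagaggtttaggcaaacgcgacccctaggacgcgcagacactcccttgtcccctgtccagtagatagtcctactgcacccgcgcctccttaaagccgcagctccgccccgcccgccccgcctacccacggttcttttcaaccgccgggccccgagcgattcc
The match begins 139 bases before the start in Opalin and 84 bases before it in Apod, so the motif stands in a gene that fell and in one that rose. Ugt8a has a window of 76.8% G and C with 32 CG dinucleotides, Efhd1 60.8% with 19, Opalin 54.4% with 4 and Apod 36.4% with 4, beside medians of 52.0% and 6 over all promoters. Of the 37 members, 27 have an entry among the 27025 symbols of the promoter table. ACAAAG stood in 8 of the 27 (29.6%) and in 16.5% of all promoters, CTGGCAC in 4 of 27 (14.8%) and in 4.1% of all, and AGAACA in 2 of 27 (7.4%) and in 16.2% of all. Among the 10 members with an entry that passed against NCAC, the matches numbered 3, 0 and 1. A match of letters is not a bound site.

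Sheath and membrane proteins make up 15 of the members. Of these, 4 were lower against Con (Opalin, Pllp, Gjb1 and Tmem125) and 5 against NCAC (the same 4 and Gpr37), and none was higher. Opalin, a transmembrane glycoprotein made by mature oligodendrocytes, was at 25.2, 38.4, 30.5, 22.3 and 13.2 TPM in the 5 Con libraries and at 22.1, 38.4, 23.9, 24.2 and 37.0 TPM in the 5 NCAC libraries. In the 7 CAC libraries it ran from 5.06 through a median of 8.64 to 20.5 TPM. Every CAC library lay below every NCAC library, and 5 of 7 lay below every Con library. The difference was -1.30 ± 0.32 against Con (adjusted p = 0.00783) and -1.51 ± 0.32 against NCAC (adjusted p = 0.0077).

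Pllp, plasmolipin, a tetraspan protein of myelin rafts, was at 43.9, 54.2, 46.8, 37.9 and 29.4 TPM in Con and at 34.5, 57.3, 36.9, 34.3 and 57.6 TPM in NCAC. CAC libraries ran from 16.8 through 24.8 to 36.4 TPM, 5 of 7 below all Con and 6 of 7 below all NCAC libraries. Its difference was -0.77 ± 0.19 against Con (adjusted p = 0.00844) and -0.81 ± 0.19 against NCAC (adjusted p = 0.0176). Gjb1, connexin 32, which forms gap junctions between the layers of the sheath, was at 14.6, 16.5, 15.4, 9.77 and 8.13 TPM in Con and at 8.40, 18.4, 11.4, 10.4 and 20.8 TPM in NCAC. Its CAC libraries ran from 4.18 through 6.08 to 15.2 TPM, and replicates 3, 4 and 5 overlapped both other groups. The difference was -0.75 ± 0.23 against Con (adjusted p = 0.0244) and -0.82 ± 0.23 against NCAC (adjusted p = 0.0445).

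Tmem125, a small transmembrane protein, was at 6.02, 7.29, 5.17, 4.68 and 4.76 TPM in Con, at 4.89, 9.75, 6.03, 5.94 and 7.55 TPM in NCAC, and from 2.61 through 3.95 to 5.25 TPM in CAC. Only CAC replicate 5 overlapped the other groups. It differed by -0.49 ± 0.17 from Con (adjusted p = 0.0467) and by -0.74 ± 0.17 from NCAC (adjusted p = 0.0136). Gpr37, an orphan receptor that restrains oligodendrocyte maturation, was at 35.1, 39.2, 37.4, 30.5 and 24.8 TPM in Con, at 32.4, 42.0, 37.0, 33.1 and 48.1 TPM in NCAC, and from 20.8 through 29.0 to 33.2 TPM in CAC. It passed against NCAC, with -0.50 ± 0.13 (adjusted p = 0.0282) and 6 of 7 CAC libraries below all NCAC libraries, and not against Con, with -0.30 ± 0.13 (adjusted p = 0.106).

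**Figure D2:**
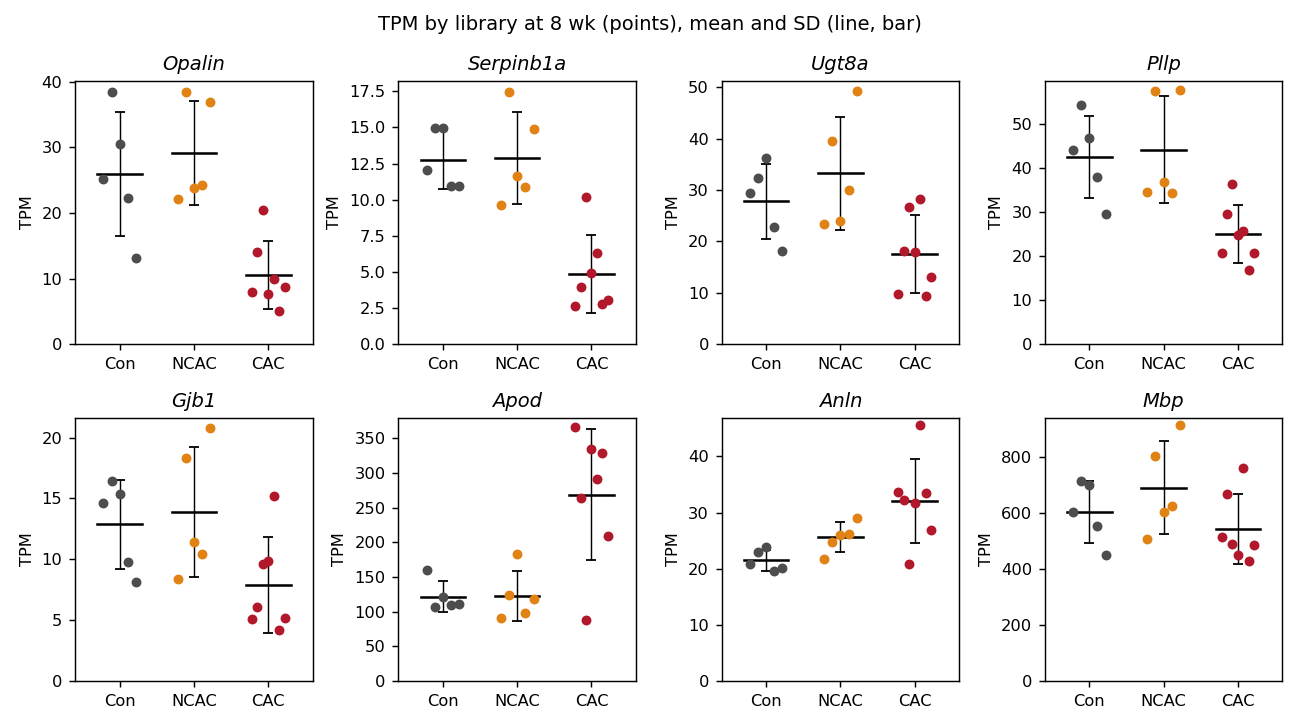
TPM (y axis, from 0) of 8 members in each library at 8 wk, by group (x axis); points are libraries, the line is the group mean and the bar its SD. CAC libraries of Opalin and Serpinb1a lie low, 6 of 7 CAC libraries of Apod lie above all others, and those of Mbp overlap both other groups.

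The other 10 sheath members did not pass. Mbp, which zips the cytoplasmic faces of the membrane together, averaged 544 ± 124 TPM (SD, n = 7) in CAC, 605 ± 110 TPM (n = 5) in Con and 692 ± 165 TPM (n = 5) in NCAC. Its difference was -0.16 against Con (95% interval -0.468 to 0.141) and -0.34 against NCAC (-0.648 to -0.039, adjusted p = 0.244). Mobp, a second basic protein of compact myelin, averaged 287 ± 74.6 TPM in CAC, 247 ± 40.9 TPM in Con and 293 ± 74.3 TPM in NCAC. Mal, a raft proteolipid, averaged 173 ± 40.5, 154 ± 36.9 and 189 ± 46.2 TPM in the same order, and Cldn11, the claudin of the radial component, 113.8 ± 34.0, 113.8 ± 26.6 and 123 ± 36.9 TPM. For Mobp the interval against Con was -0.135 to 0.528, for Mal -0.176 to 0.505 and for Cldn11 -0.355 to 0.329. The ranges of the 3 groups overlapped for each of these transcripts.

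Cnp, the phosphodiesterase that keeps cytoplasmic channels open in myelin, averaged 144 ± 22.3 TPM in CAC, 187 ± 40.3 TPM in Con and 207 ± 55.8 TPM in NCAC, with differences of -0.36 (adjusted p = 0.0967) and -0.49 (adjusted p = 0.0756). The adhesion proteins Mag and Mog gave -0.33 and -0.32 against Con and -0.45 each against NCAC, with adjusted p from 0.171 to 0.257. Ermn, a cytoskeletal protein of the outer loops, gave -0.11 and -0.41, Evi2a -0.32 and -0.50, and Tspan2, a tetraspanin, 0.18 and -0.15, none past the threshold.

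Enzymes of myelin lipid and metabolite handling were represented by 6 members, of which 3 were lower against Con (Ugt8a, Car2 and Qdpr) and 4 against NCAC (the same 3 and Aspa). Ugt8a, the transferase that makes galactosylceramide, the signature lipid of myelin, was at 29.5, 32.3, 36.3, 22.8 and 18.1 TPM in Con and at 23.4, 39.6, 23.97, 29.99 and 49.2 TPM in NCAC. The CAC libraries ran from 9.40 through 18.0 to 28.3 TPM, and only replicates 3 and 5 overlapped the other groups. It differed by -0.71 ± 0.25 from Con (adjusted p = 0.0425) and by -0.95 ± 0.25 from NCAC (adjusted p = 0.0285). Other enzymes of the same lipid route did not pass, with -0.30 and -0.40 for Fa2h, which hydroxylates the fatty acids of these lipids, and -0.29 and -0.35 for Gal3st1, which adds the sulfate of sulfatide.

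Car2, carbonic anhydrase 2, which balances acid and water in oligodendrocytes, was at 229, 237, 234, 210.6 and 210.4 TPM in Con and at 199, 241, 226, 220.1 and 298 TPM in NCAC. CAC libraries ran from 111 through 154 to 220.0 TPM, again with replicates 3 and 5 inside the range of both groups. The difference was -0.47 ± 0.13 against Con (adjusted p = 0.0132) and -0.54 ± 0.13 against NCAC (adjusted p = 0.0176). Qdpr, which regenerates tetrahydrobiopterin, was at 199, 219, 195, 179 and 175 TPM in Con, at 182, 267, 186, 199 and 250.5 TPM in NCAC, and from 124 through 150.4 to 177 TPM in CAC. All 7 CAC libraries lay below all NCAC libraries and 5 below all Con libraries. It differed by -0.36 ± 0.12 from Con (adjusted p = 0.04) and by -0.52 ± 0.12 from NCAC (adjusted p = 0.0176).

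Aspa, aspartoacylase, which frees acetate from N-acetylaspartate for lipid synthesis, was at 8.61, 9.78, 9.18, 6.77 and 5.69 TPM in Con, at 6.01, 11.0, 12.3, 7.20 and 11.7 TPM in NCAC, and from 4.12 through 6.39 to 7.28 TPM in CAC. It passed against NCAC (-0.65 ± 0.16, adjusted p = 0.0228) and not against Con (-0.43 ± 0.16, adjusted p = 0.0663). In both comparisons 3 of 7 CAC libraries lay below the whole range of the other group.

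Secreted and extracellular members moved in both directions. Apod, a lipocalin that binds small lipids and is made by oligodendrocytes and other glia, was at 160.3, 107, 122, 109 and 110.5 TPM in Con and at 90.1, 123, 183, 98.7 and 118 TPM in NCAC. In CAC it ran from 88.6 through 291 to 366 TPM. CAC replicate 3 lay below all 10 other libraries at 8 wk and the other 6 CAC libraries lay above them all. The difference was 1.04 ± 0.27 against Con (adjusted p = 0.00973) and 1.06 ± 0.27 against NCAC (adjusted p = 0.0269). Hapln2, a link protein of the perinodal matrix, averaged 20.98 ± 6.22 TPM in CAC and 14.9 TPM in each other group, with 0.44 in both comparisons (adjusted p = 0.0655 and 0.157).

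Adamts4, a metalloprotease of mature oligodendrocytes, was at 10.3, 14.0, 13.7, 9.64 and 6.73 TPM in Con, at 7.60, 12.8, 10.6, 10.8 and 18.5 TPM in NCAC, and from 4.26 through 7.29 to 8.90 TPM in CAC. It was lower against Con (-0.64 ± 0.22, adjusted p = 0.0442), with 2 of 7 CAC libraries below all Con libraries. Against NCAC it gave -0.77 ± 0.22 (adjusted p = 0.0561). Trf, transferrin, the iron carrier that oligodendrocytes secrete, averaged 166 ± 50.9 TPM in CAC, 165 ± 42.8 TPM in Con and 189 ± 50.1 TPM in NCAC and did not pass. Klk6 was near the floor, with 0 to 1.72 TPM in CAC, 0.570 to 1.83 TPM in Con and 0.494 to 2.42 TPM in NCAC, and did not pass.

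The remaining 9 members are cytoskeletal, stress-related or otherwise unclassed. Serpinb1a, an intracellular inhibitor of serine proteases, was at 12.1, 14.9, 14.9, 11.0 and 10.9 TPM in Con and at 9.60, 17.4, 11.7, 10.9 and 14.9 TPM in NCAC. CAC libraries ran from 2.67 through 3.93 to 10.2 TPM. Its 7 CAC libraries all lay below all Con libraries, and 6 of 7 lay below all NCAC libraries. Only 1 of 37 members had no overlap with Con, a lower share than the 7.02% of all tested genes (in either direction). The difference was -1.43 ± 0.23 against Con (adjusted p = 0.00029) and -1.42 ± 0.23 against NCAC (adjusted p = 0.000293).

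Efhd1, a calcium-binding protein of mitochondria, was at 20.2, 25.0, 23.5, 20.6 and 15.3 TPM in Con, at 17.8, 29.6, 20.3, 18.2 and 31.7 TPM in NCAC, and from 10.7 through 16.4 to 17.6 TPM in CAC. Together with Opalin and Qdpr it was 1 of 3 members whose CAC libraries all lay below all NCAC libraries (1.15% of tested genes had no overlap with NCAC). It differed by -0.45 ± 0.15 from Con (adjusted p = 0.0323) and by -0.59 ± 0.15 from NCAC (adjusted p = 0.0219). Ppp1r14a, an inhibitor of myosin phosphatase, was at 6.38, 6.58, 6.25, 5.21 and 3.73 TPM in Con, at 3.02, 3.88, 3.28, 3.10 and 6.65 TPM in NCAC, and from 1.71 through 2.44 to 6.19 TPM in CAC. It was lower against Con (-0.86 ± 0.28, adjusted p = 0.0333) and did not pass against NCAC (-0.38 ± 0.28, adjusted p = 0.551); NCAC against Con gave -0.48 ± 0.30 (adjusted p = 0.705).

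Anln, anillin, which anchors septins along the sheath, was at 20.8, 23.1, 23.9, 19.7 and 20.2 TPM in Con, at 21.7, 24.8, 26.1, 26.2 and 29.1 TPM in NCAC, and from 20.9 through 32.3 to 45.6 TPM in CAC. Of the 7 CAC libraries, 6 lay above all Con libraries, replicate 3 being the exception. It was higher against Con (0.53 ± 0.14, adjusted p = 0.0121) and did not pass against NCAC (0.29 ± 0.14, adjusted p = 0.313). Cryab, a small heat shock protein, gave -0.36 and -0.46, Josd2, a deubiquitinase, -0.27 and -0.17, Gsn, gelsolin, -0.08 and -0.23, Ndrg1 0.10 and -0.08, and Sec14l5 0.09 and -0.01, none past the threshold.

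Neither transcription factor of the module passed. Myrf, the factor that keeps the myelin programme on in mature cells, averaged 23.1 ± 4.36 TPM in CAC, 19.4 ± 2.52 TPM in Con and 22.0 ± 4.39 TPM in NCAC. Its difference was 0.23 (95% interval -0.016 to 0.484) against Con and 0.07 (-0.176 to 0.323) against NCAC. Nkx6-2, a homeobox factor needed for the paranode, averaged 5.07 ± 2.71, 5.10 ± 1.10 and 5.37 ± 1.57 TPM in the same order.

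Among the 7 CAC libraries at 8 wk, replicates 3 and 5 carried the weakest pattern. Of the 11 members lower against Con, replicate 1 lay below the Con range in 11, replicates 6 and 7 in 10 each, replicate 4 in 8, replicate 2 in 7, and replicates 3 and 5 in 3 each. Replicate 3 also lay below or inside the range of both other groups for Apod and Anln; its erythrocyte list stood 3.74 log2 above the median library, and the part of blood in its values was not tested. Without that library 15 members passed against Con (3070 of all tested genes, 2256 with it) and 15 against NCAC (714, 285 with it). Replicate 5 had the highest mean over the members of any CAC library at 8 wk, 5.38 on the log2 scale against a CAC mean of 4.87 ± 0.27, a Con mean of 5.13 ± 0.26 and an NCAC mean of 5.25 ± 0.31. Without it, 16 members passed against Con (2547 of all tested genes) and 15 against NCAC (313). Replicates 3 and 5 were picked out by the members' own values, so a higher count without them was likely beforehand. Without all 6 libraries rich in other tissue, of which replicate 3 is the only one at 8 wk, the counts were 18 and 16. Over all tested genes they were 3623 and 1170, so the rise was not limited to the members.

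Single libraries weighed on these calls. Each fit was repeated without 1 of the 12 libraries compared, and the count against Con then ran from 6 to 16, the lowest without CAC replicate 1 or 7 or Con replicate 1, 2 or 3. Against NCAC it ran from 2 to 15, the lowest without NCAC replicate 2 or 5, with 3 without CAC replicate 6 and 4 without CAC replicate 1. Counts over all tested genes moved as well, against Con from 1034 (without CAC replicate 2) to 3070 (without CAC replicate 3). Against NCAC they ran from 72 (without NCAC replicate 5) to 714 (without CAC replicate 3). Serpinb1a and Opalin passed in all 12 fits of both comparisons, with adjusted p of at most 0.00267 and 0.0415. Apod, Anln, Car2 and Pllp passed in all 12 fits against Con, with adjusted p of at most 0.0334, 0.0425 and 0.0303 for the last 3 and 0.0259 for Apod.

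For the other calls the adjusted p crossed the threshold in some fits. Against NCAC, Apod missed in 8 of 12 fits (up to 0.0859; without CAC replicate 1, 2, 4 or 6 or NCAC replicate 1, 2, 4 or 5), Gjb1 in 7 (up to 0.236; CAC 1, 2, 6 or 7, NCAC 2, 4 or 5), Ugt8a in 6 (up to 0.169; CAC 1, 6 or 7, NCAC 2, 4 or 5) and Aspa in 6 (up to 0.124; CAC 1, 6 or 7, NCAC 2, 3 or 5). Efhd1 and Gpr37 missed in 5 each (up to 0.15 and 0.167; CAC 1, 6 or 7, NCAC 2 or 5), Car2 and Qdpr in 4 each (up to 0.118 and 0.1; CAC 1 or 6, NCAC 2 or 5), Pllp in 3 (up to 0.108; CAC 6, NCAC 2 or 5) and Tmem125 in 2 (up to 0.09; NCAC 2 or 5). Against Con, Tmem125 missed in 10 fits (up to 0.133; all but those without CAC 3 or 5), and Ugt8a, Qdpr and Adamts4 in 9 each (up to 0.13, 0.0955 and 0.131; all but those without CAC 3 or 5 or Con 5). Ppp1r14a missed in 8 (up to 0.0886; CAC 1, 2, 4 or 7, Con 1, 2, 3 or 4), and Gjb1 and Efhd1 in 7 each (up to 0.0761 and 0.0935; Gjb1 without CAC 1, 2, 6 or 7 or Con 1, 2 or 3, Efhd1 without CAC 1, 6 or 7 or Con 1, 2, 3 or 4). The direction held in all these fits.

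Earlier times showed fewer calls. At 2 wk 0 of 37 members passed in CAC against Con (3.7% of all genes passed, 1.72% higher and 1.98% lower; 5 members had an unadjusted p under 0.05), in CAC against NCAC (0% of all genes; 7 members) and in NCAC against Con (0%; 3 members). Opalin then stood at 38.2 ± 9.36 TPM (n = 4) in CAC, 36.3 ± 8.32 TPM (n = 5) in Con and 25.8 ± 4.06 TPM (n = 5) in NCAC, and Serpinb1a at 15.8 ± 4.33, 15.3 ± 2.05 and 11.8 ± 1.43 TPM. Both differences against Con were near 0, at 0.08 and 0.02. Over the 37 members CAC was above NCAC in 34 (median 0.30) and above Con in 29 (median 0.095). NCAC was below Con in 32 (median -0.163). Against Con the count was 3 without CAC replicate 5 (1279 of all tested genes, from 577) and 1 without Con replicate 1 (839). Without the libraries rich in other tissue it was 0 against Con and 0 against NCAC.

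At 4 wk 0 members passed in limma's test against Con (0.801% of all genes, 0.487% higher and 0.314% lower), against NCAC (0.0128%) or between NCAC and Con (0%). An unadjusted p under 0.05 was reached by 11, 15 and 0 members, and the difference was below 0 for 31 and 33 of 37 members in the CAC comparisons. The 5 CAC libraries were far apart. Opalin was at 47.8, 9.46, 22.6, 4.67 and 49.2 TPM in replicates 1 to 5, and Apod in the same libraries at 137, 330.3, 142, 791 and 164 TPM. Replicates 2 and 4, lowest in Opalin, were highest in Apod; replicate 4 held the lowest Opalin and the highest Apod value of all 60 libraries. Replicate 4 stood 1.59 log2 above the median library in the striatum list and replicate 2 1.74 above it in the erythrocyte list. Replicate 1, with high Opalin and low Apod, stood above the median library in both lists, by 3.86 and 2.0. The part of other tissue in these values was not tested. Without replicate 5, 6 members passed against Con (590 of all tested genes, from 125) and 3 against NCAC (180, from 2). Without the libraries rich in other tissue, which leaves CAC replicates 3 and 5, 0 members and 0 genes passed in either CAC comparison.

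At 6 wk 2 members passed in CAC against NCAC (1.77% of all genes, 1.33% higher and 0.442% lower), Apod and Anln, both higher. Apod was at 323, 422, 253, 237 and 333 TPM in CAC, at 163, 167, 101 and 122 TPM in the 4 NCAC libraries and at 135, 144, 197, 161 and 115 TPM in Con. All 5 CAC libraries lay above all 9 others, and the share of all tested genes without overlap was not counted at 6 wk. The difference was 1.18 ± 0.31 against NCAC (adjusted p = 0.0372) and 1.05 ± 0.29 against Con (adjusted p = 0.0962). Anln was at 39.2, 39.0, 47.9, 27.5 and 42.6 TPM in CAC and at 26.9, 23.6, 28.5 and 21.4 TPM in NCAC, a difference of 0.62 ± 0.16 (adjusted p = 0.0377). Both calls were lost without CAC replicate 1, 2 or 5 or NCAC replicate 1, 3 or 4, and with no filter on low values, and 1 was lost without CAC replicate 3 or NCAC replicate 2. Against Con 0 members passed at 6 wk (0.25% of all genes, 0.179% higher and 0.0705% lower; 9 members at an unadjusted p under 0.05), nor did NCAC against Con (0%; 1 member). Opalin averaged 17.4 ± 5.17 TPM in CAC, 27.6 ± 2.596 TPM in Con and 28.3 ± 8.00 TPM in NCAC, and Serpinb1a 7.98 ± 1.87, 12.2 ± 1.81 and 12.4 ± 3.21 TPM. Their differences of -0.70 and -0.60 against Con did not pass (adjusted p = 0.417 and 0.31).

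**Figure D3:**
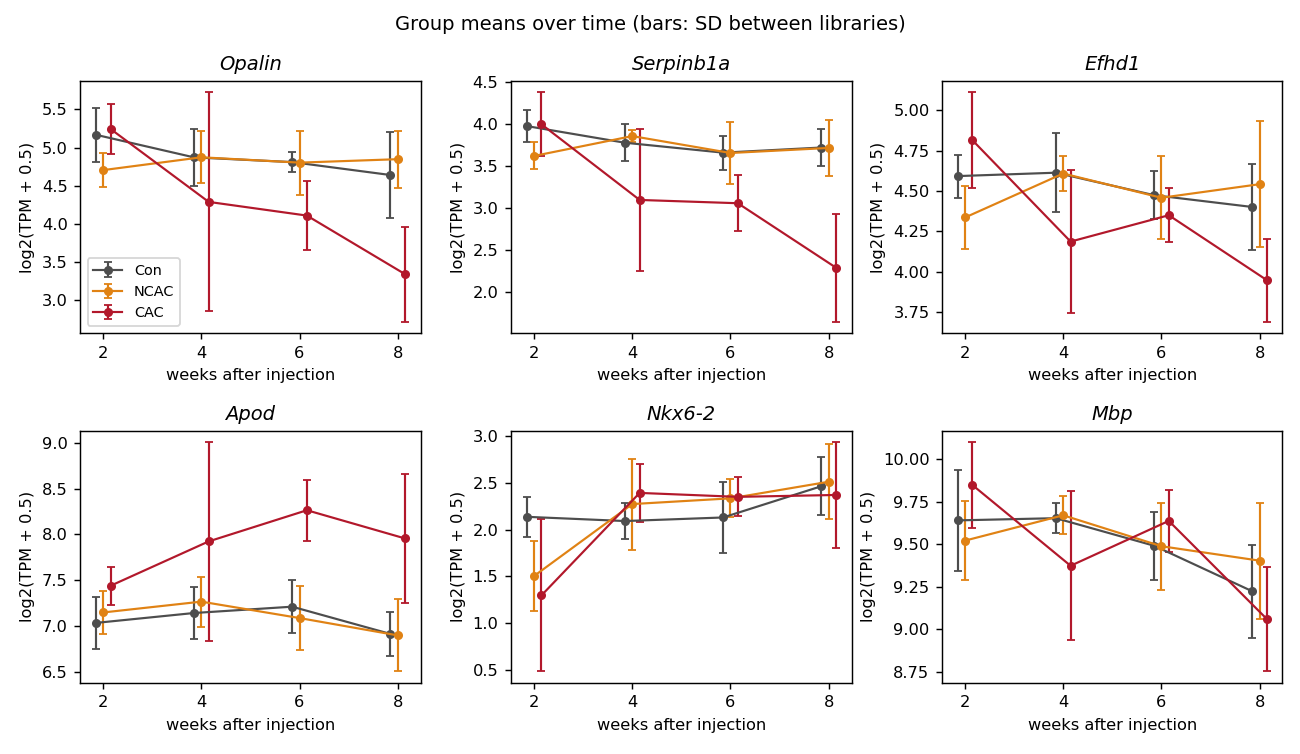
Group mean of log2(TPM + 0.5) (y axis) by weeks after injection (x axis) for 6 members; colours are groups and bars are the SD between libraries. The CAC means of Opalin and Serpinb1a are lowest at 8 wk, that of Apod is highest at 6 wk, and the SD of Opalin and Apod in CAC is widest at 4 wk.

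Averaged over the 4 times, 12 members differed between CAC and Con (19.8% of all genes, 14.9% higher and 4.95% lower), 2 higher (Apod and Anln) and 10 lower, and 10 differed between CAC and NCAC (15.7%, 11.6% higher and 4.11% lower), 3 higher (Apod, Anln and Hapln2) and 7 lower. Apod was higher by 0.82 ± 0.15 against Con (adjusted p = 0.000146) and 0.80 ± 0.15 against NCAC (adjusted p = 0.000372), and Serpinb1a gave -0.67 ± 0.12 (adjusted p = 0.000217) and -0.60 ± 0.13 (adjusted p = 0.00111). Opalin, Pllp, Ugt8a, Qdpr, Car2 and Cryab were lower in both, and Gjb1, Adamts4 and Josd2 against Con. Between NCAC and Con the same average called 0 members and 0% of all genes, with 0 members at an unadjusted p under 0.05. Without the 6 libraries rich in striatum, thalamus or erythrocyte genes, 4 members passed in each CAC comparison. Leaving out CAC 4 wk replicate 4 alone brought the count against Con to 6 (2412 of all tested genes), and leaving out CAC 2 wk replicate 2 to 7 (2502).

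Time itself was compared within each group, where time since injection cannot be told apart from age at injection or at collection. From 2 wk to 8 wk in CAC, 29 members passed, 27 lower and 2 higher, where 31% of all genes passed (20.1% lower and 10.8% higher). Opalin differed by -1.90 (adjusted p = 9.55e-05), Serpinb1a by -1.70, Ugt8a by -1.67 and Mbp by -0.79, while Nkx6-2 rose by 1.07 and Hapln2 by 0.66. Thalamus genes were lower over the same interval, 10 of 10 with a median of -0.96. Striatum genes had a median of -1.08, while 2 of 12 passed as lower, a share not above that of all genes. Also lower were 5 of 10 astrocyte genes (2 higher), 4 of 8 endothelial genes (1 higher) and 4 of 10 neuronal genes (2 higher). Of microglia and hippocampal neuron genes, 2 of 10 each were lower (1 and 3 higher). In the lineage, 22 of 28 other mature, 7 of 10 newly formed and 5 of 12 precursor genes were lower. The part of other cells and tissue in the members' values was not tested. CAC 2 wk replicate 1 stood 2.38 and 3.64 log2 above the median library in the thalamus and striatum lists. With the striatum, thalamus and choroid plexus lists as covariates 15 members passed (871 of all tested genes, from 4831). Without CAC 2 wk replicate 1, 26 passed (3283 genes). Without all the libraries rich in other tissue, 27 members passed, 3 higher and 24 lower (3544 of all tested genes).

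In NCAC only Nkx6-2 passed between 2 and 8 wk, higher by 1.00 (adjusted p = 0.011; 14% of all genes passed, 4.68% higher and 9.35% lower). It was at 2.68, 1.41, 2.02, 3.06 and 2.88 TPM at 2 wk and at 4.18, 5.71, 6.05, 3.47 and 7.43 TPM at 8 wk. The call was lost without NCAC 2 wk replicate 2, where 1 of all tested genes passed. Without NCAC 2 wk replicate 1, 2 members passed (2309 of all tested genes). In CAC Nkx6-2 was at 0.929, 1.27, 2.36 and 4.56 TPM at 2 wk. In Con 3 members passed between 2 and 8 wk (9.67% of all genes, 1.67% higher and 8% lower), all sheath proteins and all lower: Mobp by -0.61, Mal by -0.70 and Tspan2 by -0.73. Of the 37 members, 32 were below 0 in Con, with a median of -0.258 (all genes -0.056) and 13 at an unadjusted p under 0.05. In CAC 32 were also below 0 (median -0.758), and in NCAC 19 (median -0.008). The number of calls in Con fell to 1 without Con 2 wk replicate 1 or 2 or Con 8 wk replicate 5 (173, 463 and 677 of all tested genes). It rose to 7 without Con 2 wk replicate 4 (2546 genes).

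The change of a difference between 2 and 8 wk was tested as an interaction, the 8 wk difference minus the 2 wk one. For CAC against NCAC the 2 wk difference was above 0 in 34 of 37 members and so enlarges a fall. The members' median was 0.30 at 2 wk, -0.414 at 8 wk and -0.671 for the change. For CAC against NCAC it passed for 3 members (0.237% of all genes, 0.128% higher and 0.109% lower), all lower: Serpinb1a by -1.80 ± 0.35 (adjusted p = 0.0176), Efhd1 by -1.07 ± 0.22 (adjusted p = 0.0254) and Gpr37 by -0.84 ± 0.20 (adjusted p = 0.0438). Efhd1 was at 30.7, 21.9, 24.9 and 34.8 TPM in CAC and at 21.3, 18.5, 16.6, 19 and 23.8 TPM in NCAC at 2 wk, and the 2 groups overlapped there. The count was 0 without CAC 2 wk replicate 1 or 5 or NCAC 8 wk replicate 2 or 5 (1 of all tested genes in each fit). With the list covariates 0 members and 0 genes passed. The count was 1 without NCAC 2 wk replicate 2 or 4 (9 and 8 of all tested genes) and 5 without NCAC 8 wk replicate 4 (57). It was 6 without CAC 8 wk replicate 5 (66), and 8 without CAC 2 wk replicate 2 (123) or CAC 8 wk replicate 3 (138). Without the 6 libraries rich in other tissue it was 11 (212 of all tested genes, from 37). For CAC against Con the interaction called 0 members (0.00641% of all genes), with 15 at an unadjusted p under 0.05. Without CAC 8 wk replicate 3 it called 1 member (18 of all tested genes).

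**Figure D4:**
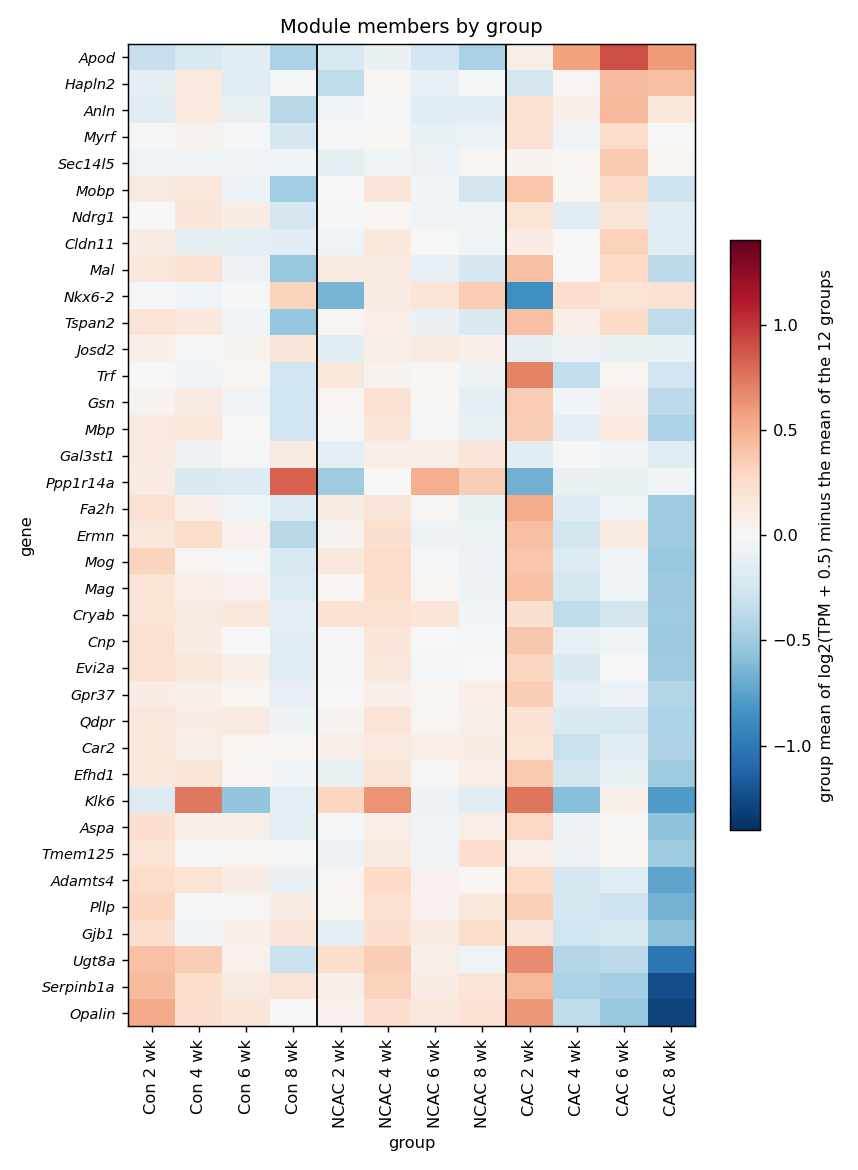
Heat map of the 37 members (rows) in the 12 groups (columns), coloured by the group mean of log2(TPM + 0.5) minus the mean of the 12 groups. CAC at 8 wk held the lowest mean of 24 members and CAC at 2 wk the highest mean of 25, while Apod was highest in CAC at 6 wk.

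Levels of the members covaried between libraries of one group. With group means removed, the 666 pairs of members had a median Pearson r of 0.602 over the 60 libraries, 412 pairs were above 0.5 and 37 below 0. These points share a dissection, a library and a scaling, and r is given as a description. Against the mean of the other members, Cnp reached 0.959, Mag and Fa2h 0.950 each, and Mbp 0.937. Looser ties were those of Klk6 at 0.420, Nkx6-2 at 0.322, Ppp1r14a at 0.292 and Anln at 0.275, and Apod was the only member with a negative value, -0.309. Among pairs picked after their values were seen, Opalin and Pllp had an r of 0.935, Mbp and Mobp 0.917, Opalin and Mobp 0.446, and Opalin and Apod -0.614.

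By the same measure, 31 tested genes outside the module had an r above 0.8 with its mean. Among the 10 highest were Prr18 at 0.932, Tmem63a at 0.920, Tmem88b at 0.912, Itgb4 at 0.910, Plxnb3 at 0.909, Bcas1 at 0.903, Sept4 at 0.902, Tmbim1 at 0.894 and Phldb1 at 0.893. At 8 wk against Con, Itgb4, an integrin chain, differed by -0.50 (adjusted p = 0.0467) and Phldb1 by -0.39 (adjusted p = 0.0429), and against NCAC Phldb1 by -0.47 (adjusted p = 0.0497); Prr18, Tmem63a, Tmem88b, Plxnb3, Bcas1, Sept4 and Tmbim1 passed in neither.

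Other genes of the lineage were read from lists. Beside them, 11.3% of all tested genes were higher and 3.2% lower against Con at 8 wk, and 1.26% and 0.564% against NCAC. Of 28 further genes of mature oligodendrocytes, 4 were lower against Con at 8 wk and 1 against NCAC, with medians of -0.12 and -0.26. Among the 4 were Ninj2 at -0.89 ± 0.26 (adjusted p = 0.0195), Phldb1 at -0.39 ± 0.13 (adjusted p = 0.0429) and Fgfr2, a fibroblast growth factor receptor, at -0.32 ± 0.11 (adjusted p = 0.0418), and the 1 against NCAC was Phldb1. Ninj2 was near the floor, with means of 0.351 TPM in CAC, 1.10 TPM in Con and 1.02 TPM in NCAC. Enpp6, a choline phosphodiesterase of newly formed oligodendrocytes, was lower in both comparisons, at -0.69 ± 0.20 (adjusted p = 0.0176) and -1.01 ± 0.20 (adjusted p = 0.00291), and was the 1 gene of 10 tested in its list that passed.

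The 12 precursor genes were split, 2 higher (Vcan at 0.34 and Neu4 at 0.30) and 2 lower (C1ql1 at -0.45 and Matn4 at -0.33) against Con, and none passed against NCAC. Of 9 lineage transcription factors, Nkx2-2 (-0.66, adjusted p = 0.0246) and Olig2 (-0.32, adjusted p = 0.0427) were lower against Con and none passed against NCAC. Cholesterol synthesis, which supplies the sheath, had 3 of 19 genes lower against Con (Hmgcs1, Tm7sf2 and Dhcr7, -0.26 to -0.30) and 1 higher (Lss, 0.21), and Hmgcs1 lower against NCAC (-0.35, adjusted p = 0.0386). Among 13 genes of sphingolipid metabolism only Sgms1 passed, higher against Con by 0.24, and among 11 partners at the node and paranode only Scn8a, a sodium channel, higher by 0.17.

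Of 7 genes reported to mark oligodendrocytes in disease, C4b, a complement component, was higher by 0.68 ± 0.21 against Con (adjusted p = 0.0235) and 1.01 ± 0.21 against NCAC (adjusted p = 0.00488), and Serpina3n, a secreted serpin, by 0.38 in each. B2m (-0.71) and Cd63 (-0.41) were among 4 genes lower against Con. These transcripts are also made by astrocytes, microglia and endothelium. None of these lists was tested as a set.

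Markers of other cells were read beside the 8 wk calls. The shares of all tested genes were again 11.3% higher and 3.2% lower against Con, and 1.26% and 0.564% against NCAC. None of 12 striatum, 10 thalamus, 12 choroid plexus, 8 ependyma, 5 erythrocyte and 10 microglia genes passed in CAC against Con or against NCAC. The summed thalamus list spanned 79.6 to 104 TPM in CAC, 78.6 to 91.6 TPM in Con and 78.3 to 96.6 TPM in NCAC, and the striatum list 150 to 208, 148 to 166 and 133 to 186 TPM. Of 10 astrocyte genes, Aldoc (0.37) and Gjb6 (0.47) were higher and Aqp4 (-0.59) lower against Con, and against NCAC Aldoc (0.32) was higher and Aqp4 (-0.61) lower. The summed astrocyte list ran from 2697 to 3384 TPM in CAC, from 2593 to 2767 TPM in Con and from 2614 to 2950 TPM in NCAC. Of 8 endothelial genes, Ly6c1 (0.59) and Slco1a4 (0.42) were higher and Cldn5 (-0.56) lower against Con, and against NCAC Ly6c1 (0.71) and Slco1a4 (0.36) were higher. Of 10 neuronal genes Syt1 (0.24) and Snap25 (0.13) were higher, of 10 hippocampal neuron genes Spink8 (0.43) was higher and Trpc6 (-0.35) lower, and of 2 tested Schwann cell genes Drp2 (0.17) was higher, all against Con. Against NCAC only Spink8 (0.59) passed among these 3 lists. Whether the astrocyte and endothelial differences bear on the members was not tested, nor was the amount of white matter in each piece.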

How the data were processed

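Poly(A) RNA of 60 hippocampi was sequenced as stranded libraries, per the labels' protocols, and the authors deposited 1 table of TPM per gene symbol. The build was mm10, per the submitters' processing notes; for aligner, counter and annotation, names were not given in the sources used here. Samples were grouped by the treatment and time in the labels. The members and lists were chosen with earlier results of these data known.

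Values were taken as log2(TPM + 0.5) and fitted with limma 3.58.1 in R 4.3.3, with 12 group means over 60 libraries, a trend of the variance on the level, and Benjamini-Hochberg adjustment. The test covered the 15608 genes with 1 TPM or more in 4 or more libraries. TPM steps gave whole reads in every library for 99.98% of 24227 genes (tolerance 0.02 reads), with a depth of 32386613 to 42044671. These reads, scaled by a trimmed mean of M values, entered limma voom as an alternative. Other alternatives were pseudocounts of 0.1 and 1, no filter, median-of-ratios scaling, splines of GC content and gene length (5 degrees of freedom, 96.3% of tested genes matched), a replicate block, list covariates, only the groups compared, and leaving out libraries. The fit was tested on simulated data.

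Full values are given for members that passed at 8 wk, group means for the 8 of highest TPM and the 2 transcription factors, up to 4 genes from each other list, and the 10 genes whose level, with group means removed, was most correlated with the members' mean. Some genes that this rule names are not reported here.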

Additional observations from a re-analysis of the deposited data

Results flagged for a closer look

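Of 57 groups of values, 3 held a library far from the rest of its group, where chance gives about 1 in 20. Apod in Con 8 wk replicate 1 was at 160.3 TPM, with the nearest Con library at 121.6 TPM. Ppp1r14a in NCAC 8 wk replicate 5 was at 6.651 TPM, with the nearest at 3.878 TPM. The mean log2 level over the members in Con 6 wk replicate 4 was 5.483, with the nearest at 5.203.

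The difference between CAC and NCAC changed from 2 wk to 8 wk for Serpinb1a (-1.799, adjusted p = 0.0176), Efhd1 (-1.074, adjusted p = 0.0254) and Gpr37 (-0.844, adjusted p = 0.0438) in limma's interaction test. With striatum, thalamus and choroid plexus genes as covariates 0 members passed that test. The 2 wk difference that it subtracts was above 0 in 34 of 37 members.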

How the results depend on the processing

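For the 25 calls of single members at 8 wk, 275 values came from other settings, and 61 of them missed the threshold: 22 with the replicate block and the correction for gene length and GC content, 20 with the replicate block, 12 with only the groups compared, 5 with no filter and 2 with the length and GC correction. None reversed, and leaving out 1 library lost 109 of 300. The cause was not tested in any case. Apod against Con and Serpinb1a in both comparisons passed in all 11 settings.

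With a replicate block the count at 8 wk was 4 against Con (988 of all genes, 2256 without the block) and 1 against NCAC (51, from 285), and the change between CAC and NCAC gave 0 members (0 genes). With the block and the length and GC correction these were 3 (456), 1 (73) and 0 (0), NCAC over time gave 0 (566) and Con over time 0 (8). Same-numbered libraries had mean correlations of -0.111 to 0.103 and no pair of groups had all above 0.1, so the numbers do not pair the samples. Replicate numbers 6 and 7 occur only in CAC at 8 wk, so the block took up those libraries and left the CAC mean to the others. Of the 11 members lower against Con, replicates 6 and 7 lay below the Con range in 10 each, and replicates 3 and 5 in 3 each. How much of the loss this makes up was not tested.

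With only the groups compared the count was 2 against NCAC at 8 wk (83 genes), 1 against Con (27) and 1 against NCAC (96) at 6 wk, 6 for the mean against NCAC (1744) and 7 for Con over time (3166). Without the rich libraries it was 2 against Con at 6 wk (184), 4 for the mean against Con (1643) and 4 against NCAC (1477), 2 for NCAC over time (2886), 5 for Con over time (2000), and 2 (27) and 11 (212) for the changes against Con and NCAC. Covariates gave 1 against NCAC at 6 wk (250), 15 for CAC over time (871, from 4831) and 0 for the change against NCAC (0). The length and GC correction gave 1 against Con at 6 wk (111, from 39), 0 for NCAC over time (612, from 2189) and 1 for Con over time (18, from 1509). No filter gave 0 against NCAC at 6 wk (174), and a pseudocount of 0.1 or median-of-ratios scaling 1 against Con at 2 wk. At 8 wk against Con voom called 14 members and 1583 genes, and median-of-ratios scaling 14 and 1403.

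Leaving out 1 library, counts against Con ran from 0 to 3, 0 to 6, 0 to 0 and 6 to 16 at 2, 4, 6 and 8 wk, and against NCAC from 0 to 0, 0 to 3, 0 to 2 and 2 to 15. Over all tested genes the 8 wk counts ran from 1034 to 3070 against Con and from 72 to 714 against NCAC. NCAC against Con stayed at 0 to 0 at each time and for the mean. The mean gave 6 to 15 against Con and 8 to 13 against NCAC. Time within CAC gave 26 to 30, within NCAC 0 to 2 and within Con 1 to 7. The changes gave 0 to 1 against Con and 0 to 8 against NCAC.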
